A study of Homo sapiens with 12 samples.

Results

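The transcriptional response of KBM7 cells to depletion of the deubiquitinase USP15 was measured by RNA sequencing in 4 of the 12 libraries of the series. KBM7 is a near-haploid human cell line from a chronic myelogenous leukemia in blast crisis. The cells were transfected with a pool of small interfering RNAs against USP15 (siUSP15, 2 libraries) or with a non-targeting pool (siCtrl, 2 libraries), and total RNA was taken 72 h later. All 4 libraries thus share the cell line, the transfection and the harvest time, and differ by the siRNA pool. The 8 remaining libraries come from another leukemia line and were not analysed here. All genes of the KBM7 count table were considered, 26226 in number, of which 14980 had enough counts to be tested.

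USP15 is a ubiquitin-specific protease that removes ubiquitin chains from proteins and so counteracts their degradation or alters their signaling. It is known for acting on receptor-activated SMADs and receptors of the TGF-beta pathway, on MDM2 and on TRIM25, an activator of the RNA sensor RIG-I. KBM7 cells carry the BCR-ABL1 kinase and come from the myeloid side of blood formation, so genes of red cells, mast cells and granulocytes can be followed side by side. The comparison of siUSP15 with siCtrl asks which transcripts change when USP15 RNA is reduced, and here it is described by type of gene, by size of the change and by function, with the emphasis on genes that are not known for an answer to interferon.

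The libraries held 23450607 to 29441118 counts, of which 98.2% to 98.5% fell on protein-coding genes. The groups were well separated. The first principal component took up 73.9% of the variance and divided siUSP15 from siCtrl, and counts of replicates differed more than sampling noise allows but far less than those of the groups (chi-square per degree of freedom 4.08 and 4.91 within groups, 31.2 between siCtrl replicate 1 and siUSP15 replicate 1). Among defining markers, the progenitor genes CD34 (432.0 to 527.0 CPM) and MYB (371.0 to 411.0 CPM) and the myeloid surface gene ANPEP (183.0 to 232.0 CPM) were clearly present in each library, whereas CD38, MS4A1, EPCAM, KRT19 and COL1A2 were at or near 0. Of the other epithelial and fibroblast markers, KRT18 stood at 56.2 to 72.5 CPM, KRT8 at 10.7 to 12.2 CPM and COL1A1 at 1.21 to 1.90 CPM. CPM stands for TMM-normalized counts relative to the size of the library. PAX5, a B cell factor, was also present at 70.7 to 88.7 CPM. No source states that replicates came from separate cultures, so p-values measure the spread between these libraries, which may be technical.

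The knockdown was visible in both siUSP15 libraries. USP15 (ENSG00000135655, hg38 chr12:62260338-62417431) stood at 209.8 and 215.8 CPM with siCtrl and at 113.0 and 114.2 CPM with siUSP15. The groups did not overlap, and 53.4% of the control level was left (log2 fold change -0.91, standard error 0.0439, adjusted p = 1.58e-07 from edgeR). Of the relatives of USP15, USP4 was not called (log2 fold change 0.09, adjusted p = 0.233 from edgeR).

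The response was broad and mostly shallow. At a Benjamini-Hochberg adjusted p under 0.05 from edgeR's quasi-likelihood test, 2-sided, 29.0% of the tested genes were called, 13.2% as higher (1971 genes) and 15.8% as lower (2374 genes) with siUSP15, and 3.23% were called with an absolute log2 fold change over 1 (484 genes). The median size of a call was 0.34 on the log2 scale, or 1.27-fold, against 0.16 over all tested genes. Sizes under 0.25 made up 1355 calls, 528 higher and 827 lower, and sizes of 0.25 to 0.5 made up 1636, 728 higher and 908 lower. From 0.5 to 1 there were 474 higher and 396 lower genes, and from 1 to 2 there were 212 and 190. Above 2, or 4-fold, 29 genes were higher and 53 lower. The steps under 0.5 and the step above 2 thus held more decreases, and the steps between 0.5 and 2 more increases. In 9965 tested genes (66.5%) the groups did not overlap, called or not, which with 2 libraries a group is a weak criterion. The number of calls depended on the control libraries: without siCtrl replicate 1 it was 2214, without siCtrl replicate 2 it was 2651, and DESeq2 called 2552. When a fold of at least 1.2 was required in the test itself, 546 genes were higher and 640 lower.

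Interferon-stimulated genes were mostly higher. Of 111 tested members of an interferon list, 99 were higher and 3 lower, with a median log2 fold change of 0.65, led by lowest p by IFI44L (1.57), OAS1 (1.34), OAS3 (1.16) and XAF1 (2.09). The remaining 4242 of the 4345 called genes, or 97.6%, are outside that list and are the subject of what follows. This share is largely set by the size of the list, and genes outside it can also answer to interferon. Where a list of genes is described, its counts stand against the shares over all tested genes given above, and the lists themselves were not tested.

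Among protein-coding genes outside the interferon list with a level of at least 1 on the log2 CPM scale, the largest increases included genes of granulocytes, of metabolism and of receptor turnover. EPX, the peroxidase of eosinophil granules, stood at 0.76 and 0.59 CPM with siCtrl and at 3.43 and 2.91 CPM with siUSP15 (log2 fold change 2.21, adjusted p = 4.48e-05 from edgeR). ARRDC3, an arrestin-like adaptor that promotes the internalization of receptors, rose from 3.76 and 3.98 CPM to 17.8 and 13.5 CPM (log2 fold change 2.03). ASS1, the argininosuccinate synthase of arginine synthesis, rose from 15.9 and 13.4 CPM to 51.3 and 38.1 CPM (log2 fold change 1.61). In each of these genes siUSP15 replicate 1 was the highest library. NKAIN1 (2.04), ACPP, an acid phosphatase (1.98), BZRAP1 (1.96), RGL1, an exchange factor for Ral (1.83), C20orf197 (1.69), VNN2 (1.62) and KIAA1644 (1.603) completed the 10 largest increases by log2 fold change.

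The largest decrease of this kind was in LIPH, a lipase that produces lysophosphatidic acid. It stood at 10.9 and 13.8 CPM with siCtrl and at 0.14 and 0.25 CPM with siUSP15, that is 62.8-fold lower (log2 fold change -5.97, standard error 0.271, adjusted p = 1.15e-07 from edgeR). Its neighbours on chromosome 3 fell as well: TMEM41A from 163.8 and 184.8 CPM to 53.2 and 58.6 CPM (log2 fold change -1.64), and SENP2, a SUMO protease, from 102.7 and 104.5 CPM to 68.3 and 70.5 CPM (log2 fold change -0.58). Several other large decreases were in receptors. HRH4, a histamine receptor, fell from 3.48 and 5.25 CPM to 0.39 and 0.46 CPM (log2 fold change -3.34). CYSLTR2, a receptor of cysteinyl leukotrienes, fell from 9.58 and 10.97 CPM to 0.84 and 1.86 CPM (log2 fold change -2.96). AMHR2, the receptor of anti-Müllerian hormone, had a log2 fold change of -2.64. TMEM158 fell from 39.8 and 50.8 CPM to 6.20 and 8.19 CPM, and SLC7A8, a carrier of neutral amino acids, had a log2 fold change of -2.87. The embryonic and fetal globin genes HBE1 and HBG2, the red cell ankyrin ANK1 and the stress cytokine GDF15 (-2.40) made up the rest of the 10 largest decreases. All 20 genes kept their calls whichever library was left out.

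The response differed by type of gene. Of 12686 protein-coding genes, 14.0% were higher and 17.8% lower, while of 1626 long non-coding RNA genes 8.73% were higher and 4.74% lower. Among 531 pseudogenes 7.34% were higher and 5.27% lower. Non-coding genes were mostly counted at lower levels, so the types were also compared at matched levels. Between 0 and 2 on the log2 CPM scale, 24.2% of 1291 protein-coding and 10.4% of 615 long non-coding genes were called. Both types leaned higher there, with 189 higher and 124 lower against 40 and 24. Between 2 and 4 the shares were 30.1% of 2100 and 26.7% of 288. Both types again leaned higher, with 351 higher and 281 lower against 49 and 28. Between 4 and 6 the shares were 32.9% of 4352 and 33.3% of 81. In this range the directions differed: 647 higher and 784 lower for protein-coding genes, and 20 higher and 7 lower for long non-coding ones. Within the long non-coding class, intergenic RNAs were called in 15.1% of 656 cases, antisense RNAs in 10.4% of 680 and processed transcripts in 22.9% of 118. After removal of siCtrl replicate 1, the number of long non-coding genes called went from 219 to 75 and that of pseudogenes from 67 to 33. Without siCtrl replicate 2 they were 136 and 38.

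The best known of the long non-coding RNAs moved in opposite directions. H19, an imprinted RNA of fetal tissues, stood at 4.96 and 4.02 CPM with siCtrl and at 25.9 and 14.2 CPM with siUSP15 (log2 fold change 2.16, adjusted p = 6.38e-05 from edgeR). UCA1, an RNA named after urothelial cancer, stood at 5.27 and 6.94 CPM with siCtrl and at 0.28 and 0.46 CPM with siUSP15 (log2 fold change -4.04, adjusted p = 1.46e-06 from edgeR). Both siUSP15 libraries were thus above the controls for H19 and below them for UCA1, with a wide spread in H19. RP11-757G1.6, RP11-473M20.9, RP11-43F13.3 and RP11-284F21.10 followed H19 with log2 fold changes of 1.44, 1.26, 1.25 and 1.21, of which the first and the last lost their calls without siCtrl replicate 1, and the first also without siUSP15 replicate 2. Among long non-coding RNAs with a mean log2 CPM of at least 0, the decreases after UCA1 included those of RP11-142C4.6 (-2.42), WFDC21P (-1.81) and RP11-356J5.12 (-1.62). Of 37 long non-coding RNAs of known name, 7 were higher and 3 lower, and the higher ones included the snoRNA hosts GAS5 (0.26), SNHG1 (0.32), SNHG3 (0.23) and SNHG8 (0.19) as well as TUG1 (0.33). With siCtrl replicate 1 set aside, these counts were 4 and 2. Among pseudogenes with a mean log2 CPM of at least 0, which can share reads with their parent genes, the largest increases were in TRPC2 (1.17), FCGR2C (1.16) and HLA-L (1.12), and the largest decreases in SIGLEC17P (-2.38), AC073135.3 (-1.69) and ZSCAN12P1 (-1.11). TRPC2 lost its call without siCtrl replicate 1 and without siUSP15 replicate 1, and ZSCAN12P1 without siCtrl replicate 2.

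Level and length of a gene went along with the direction of the calls. In the quintile of genes with the lowest level 7.58% were higher and 5.74% lower, and in the quintile with the highest level 12.7% were higher and 24.4% lower. The highest counts among called genes were found in MT-RNR2, FTL, CANX, HSPD1 and PRPF8 on the higher side and in EEF1A1, MSN, PKM, RPL13A and LDHB on the lower side, with log2 fold changes from 0.15 to 0.33 and from -0.45 to -0.17. Decreases thus prevailed among abundant RNAs, although 1 of the changes named here, that of the mitochondrial ribosomal RNA MT-RNR2, rests on 2357 and 3031 CPM against 3709 and 3076 CPM. MT-RNR2, CANX and LDHB lost their calls without siCtrl replicate 1, CANX and PRPF8 without siCtrl replicate 2, and LDHB also without siUSP15 replicate 1. In the quintile of genes that span most of the genome, 84770 bases or more, 12.8% were higher and 24.1% lower, against 8.34% and 9.78% in the shortest quintile. Among protein-coding genes the quintile richest in GC held 256 higher and 506 lower genes of 2527, with a median log2 fold change of -0.05. In that group the siUSP15 libraries also differed from each other, with a median of -0.09 for replicate 2 minus replicate 1 on the log2 scale. The part of length, level and GC content in the calls was not tested. By chromosome, the share of called genes ranged from 22.1% (chromosome 16) to 34.1% on the autosomes and was 33.1% on chromosome X.

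**Figure D1:**
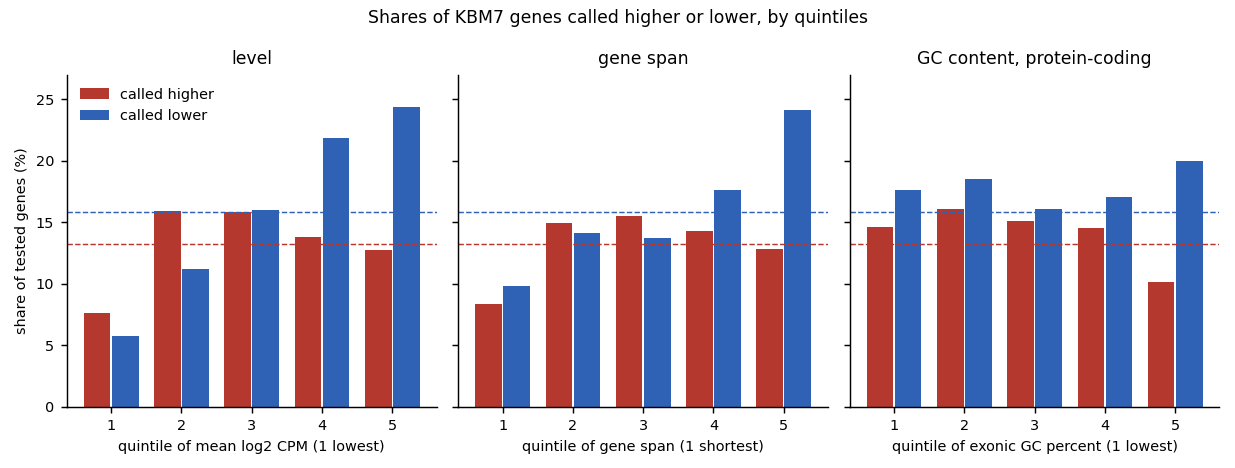
Share of tested genes (%) called higher (red) or lower (blue) with siUSP15, in quintiles of mean level, of gene span and, for protein-coding genes, of exonic GC percent, with dashed lines at the shares over all tested genes (13.2% and 15.8%). The share of lower genes climbs from 5.74% to 24.4% with the level and from 9.78% to 24.1% with the span.

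Genes of the red cell lineage held several of the largest decreases. Globins carry oxygen in red cells, and ALAS2 performs the first step of heme synthesis there. HBE1, the embryonic beta-like globin, stood at 44.4 and 55.5 CPM with siCtrl and at 4.10 and 8.32 CPM with siUSP15 (log2 fold change -3.04, standard error 0.194, adjusted p = 8.66e-07 from edgeR). HBG2, a fetal globin whose reads may partly come from the nearly identical HBG1, fell from 13.5 and 18.8 CPM to 1.75 and 3.42 CPM (log2 fold change -2.67). HBD, the delta globin, fell from 24.4 and 22.99 CPM to 5.74 and 8.61 CPM (log2 fold change -1.74), and ALAS2 from 16.8 and 19.3 CPM to 4.03 and 5.995 CPM (log2 fold change -1.87). Replicate 2 was the higher of the siUSP15 libraries in all 4 genes. The pseudogene HBBP1 between them had 34 and 26 counts with siCtrl and 0 counts in both siUSP15 libraries, which makes it at least 19.9-fold lower when 3 counts over the group are taken as the floor. The alpha globin HBA1 was low in all libraries (0.97 to 1.38 CPM) and was not called.

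To show the sequences in front of these genes, the 250 bases before the start of HBD (GRCh38.p14 chr11:5234484-5234733, minus strand) and of ALAS2 (GRCh38.p14 chrX:55030978-55031227, minus strand) are given from RefSeq, 5′ to 3′, with the letters CCAAT and AGATAA in capitals on either strand (TTATCT is AGATAA read on the other strand).
HBD: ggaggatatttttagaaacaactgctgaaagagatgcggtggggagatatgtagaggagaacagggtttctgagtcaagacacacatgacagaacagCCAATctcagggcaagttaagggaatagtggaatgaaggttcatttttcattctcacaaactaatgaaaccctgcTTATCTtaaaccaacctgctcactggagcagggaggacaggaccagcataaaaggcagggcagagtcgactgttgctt
ALAS2: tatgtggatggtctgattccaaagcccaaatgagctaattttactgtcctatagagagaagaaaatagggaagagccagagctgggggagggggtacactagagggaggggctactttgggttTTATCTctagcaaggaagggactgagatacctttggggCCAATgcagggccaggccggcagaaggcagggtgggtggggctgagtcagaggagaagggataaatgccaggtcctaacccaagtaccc
In HBD the CCAAT letters begin at -153 and TTATCT at -78 relative to the start, and in ALAS2 they begin at -89 and -127. The AGATAA letters, which hold the core that GATA factors bind, are found in 10.3% of all 300-base promoters of the RefSeq table and CCAAT in 34.6%, so their presence here is a description of the sequence and says nothing of binding.

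Of 28 tested genes of globins and heme metabolism, 10 fell and 3 rose. Beyond the globins and ALAS2, the decreases were smaller: HMOX1, which breaks down heme (-0.69), CPOX (-0.54), FTH1 (-0.23), SLC25A37 (-0.21), TFRC (-0.20) and FECH (-0.14). The ferritin light chain FTL (0.21), STEAP3 (0.42) and BLVRB (0.44) rose. Among 27 genes of the red cell membrane and surface, 12 fell and 7 rose. The decreases in this list were large for the spectrin skeleton and its anchors. ANK1 fell from 28.8 and 33.5 CPM to 4.31 and 7.05 CPM (log2 fold change -2.48), and SPTB, the beta spectrin, from 13.1 and 16.1 CPM to 2.84 and 4.35 CPM (log2 fold change -2.03). EPB42 (-2.68), the blood group gene KEL (-2.31) and the anion exchanger SLC4A1 (-1.16) fell too. The 7 that rose included ADD2 (0.55), GYPC (0.49) and CD47 (0.28), which are not restricted to red cells. Not all of the 7 are named, and the highest log2 fold change in the list was 0.68. When siCtrl replicate 1 was left out, the heme list had 7 decreases and the membrane list 3 increases, and without siCtrl replicate 2 the membrane list had 8 decreases and 3 increases. Summed over 10 erythroid markers, the level was 111 and 131 CPM with siCtrl and 30.4 and 38.8 CPM with siUSP15. In RNA from a whole culture, fewer cells of a type and less RNA per cell cannot be told apart.

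Transcription factors of the blood lineages fell more often than they rose, with 20 of 46 lower and 6 higher and a median log2 fold change of -0.17. KLF1, an activator of globin genes, had 1.21 and 1.52 CPM with siCtrl and 0.18 and 0.21 CPM with siUSP15 (log2 fold change -2.79, adjusted p = 0.000188 from edgeR). GATA1, the main factor of red cell, megakaryocyte and mast cell formation, fell from 32.0 and 33.2 CPM to 18.5 and 18.8 CPM (log2 fold change -0.80). GATA2, a factor of stem cells and mast cells, fell from 299.5 and 313.3 CPM to 165.3 and 171.5 CPM (log2 fold change -0.86), and GFI1B, a repressor in red cells and platelets, from 84.5 and 86.6 CPM to 45.9 and 45.1 CPM (log2 fold change -0.91). Replicates of these factors lay close together and far from the other group. ERG (-0.85), ID2 (-0.65), TAL1 (-0.49), RUNX1 (-0.45) and NFE2 (-0.40) also fell. On the other side, CEBPA, which directs granulocyte formation, rose from 23.2 and 21.8 CPM to 38.7 and 35.0 CPM (log2 fold change 0.71), and SPI1, the factor PU.1, by 0.25. Leaving out siCtrl replicate 1 or siCtrl replicate 2 gave 1 increase each time, with 16 and 18 decreases.

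Most called genes in the list of eosinophils, basophils and mast cells fell, among them the receptors HRH4 (-3.34) and CYSLTR2 (-2.965). EPX and CLC of eosinophils rose. Of neutrophil granule genes, MPO, PRTN3 and AZU1 rose and LTF fell. Of 23 tested genes of eosinophils, basophils and mast cells, 13 were lower and 3 higher, with a median log2 fold change of -0.53. MS4A2, the beta chain of the high-affinity receptor for IgE, fell from 81.1 and 94.2 CPM to 19.8 and 26.2 CPM (log2 fold change -1.94, adjusted p = 3.39e-07 from edgeR). CPA3, the mast cell carboxypeptidase, fell from 113.2 and 109.1 CPM to 37.7 and 47.6 CPM (log2 fold change -1.39). The tryptases TPSB2, TPSAB1 and TPSD1, which are similar in sequence and may share reads, fell by 0.57, 0.53 and 0.64 on the log2 scale, and KIT, the receptor for stem cell factor, from 58.8 and 61.4 CPM to 33.5 and 36.4 CPM (log2 fold change -0.78). ENPP3 (-1.20), HPGDS (-1.19) and HDC, which makes histamine (-0.34), fell too. The 3 genes that rose were EPX, the leukotriene receptor CYSLTR1 (1.15) and CLC, the Charcot-Leyden crystal protein of eosinophils. CLC had 1 and 1 counts with siCtrl and 50 and 13 counts with siUSP15, a ratio of 31.7 with a 95% counting interval of 8.43 to 268.

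In the list of 29 neutrophil and monocyte genes, 10 were higher and 9 lower. The higher ones included the proteins of primary granules. MPO, the myeloperoxidase, rose from 5.93 and 6.22 CPM to 15.6 and 19.8 CPM (log2 fold change 1.54, adjusted p = 6.28e-06 from edgeR), and PRTN3, proteinase 3, from 6.48 and 7.03 CPM to 21.1 and 14.7 CPM (log2 fold change 1.42). AZU1 (1.01), the integrin ITGAM (1.35), MNDA (1.23) and the receptors CSF1R (1.28) and CSF3R (1.73) rose as well, the last from a very low level of 0.10 and 0.21 CPM. The lower ones included S100A4 (-1.005), MS4A3 (-0.54), LTF, lactoferrin of secondary granules (-1.38), and the surface genes CD33 (-0.24) and ANPEP (-0.27). Without siCtrl replicate 1 the counts were 4 and 5, and without siUSP15 replicate 1 they were 6 and 8. Summed over 10 myeloid markers the level was 438 and 448 CPM with siCtrl and 432 and 430 CPM with siUSP15, and ANPEP, SPI1 and CD33 weigh most in this sum.

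**Figure D2:**
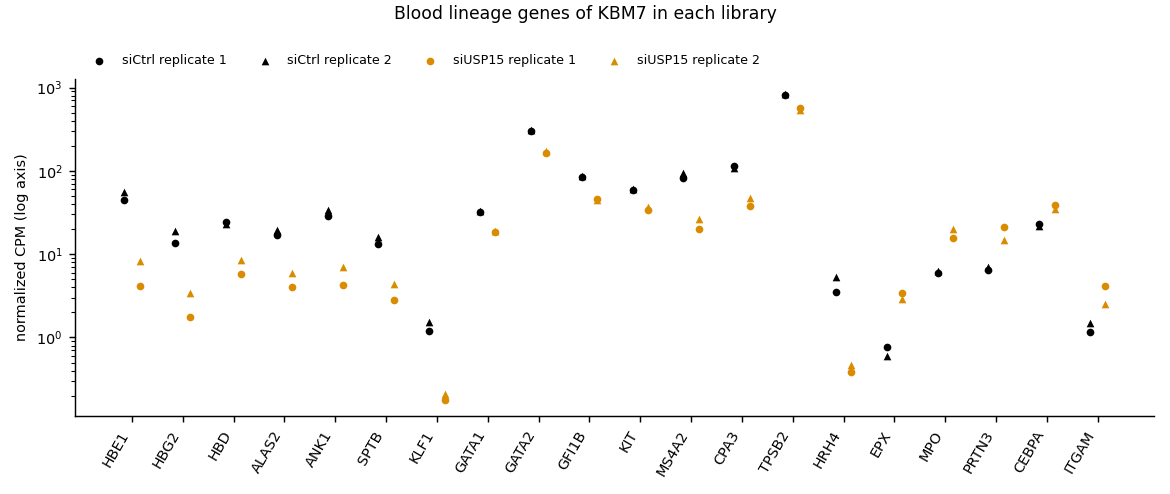
Normalized CPM (log axis) of 20 blood lineage genes in each of the 4 libraries, circles for replicate 1 and triangles for replicate 2, black for siCtrl and orange for siUSP15. From HBE1 to HRH4 the siUSP15 libraries lie below the siCtrl libraries, and from EPX to ITGAM they lie above. The groups did not overlap in any called gene, nor in 66.5% of all tested genes. The lack of overlap in the genes drawn thus follows from their choice. The genes are a selection and do not stand for whole lists. Of 29 tested neutrophil and monocyte genes 10 were higher and 9 lower, and lower ones such as LTF and S100A4 are not drawn.

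Called genes of megakaryocytes, stem cells and vessels were more often lower than higher. Among 26 megakaryocyte and platelet genes 10 fell and 2 rose, with F2RL2, a thrombin receptor, going from 44.1 and 51.4 CPM to 11.1 and 13.1 CPM (log2 fold change -1.98). F2RL3 (-0.87), the integrin ITGA2B (-0.51) and NFE2 fell as well, and PLEK (0.71) and MYLK (0.47) rose. Of 26 stem and progenitor genes 10 fell and 5 rose, with 15 of all members below 0 and 11 above and a median log2 fold change of -0.09. SOX4 fell from 233.9 and 230.9 CPM to 94.05 and 125.8 CPM (log2 fold change -1.08), MSI2 by 0.56 and the angiopoietin receptor TEK by 1.58, whereas CD34 (0.23), MECOM (0.27), PRDM16 (1.31) and CRHBP (1.49) rose. Leaving out siCtrl replicate 1 or siCtrl replicate 2 gave 2 increases each time. The endothelial genes PECAM1 (-1.13), KDR (-0.99) and CDH5 (-0.66), which hematopoietic cells can also express, fell, and 4 endothelial markers summed to 63.7 and 68.3 CPM with siCtrl and to 31.4 and 35.0 CPM with siUSP15. CDH5 lost its call when siCtrl replicate 1 was left out.

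Most genes of cholesterol synthesis fell. Its enzymes build cholesterol from acetyl-CoA under the control of the factor SREBF2. Of 34 tested genes of cholesterol synthesis and uptake, 25 were lower and 0 higher (0 higher also at an unadjusted p under 0.05 from edgeR, and 0 by DESeq2 or limma-voom), with a median log2 fold change of -0.37. SQLE, the squalene epoxidase, fell from 465.7 and 490.3 CPM to 269.7 and 298.0 CPM (log2 fold change -0.75, standard error 0.0529, adjusted p = 1.71e-06 from edgeR). DHCR7, of the last step of the pathway, fell from 135.6 and 140.3 CPM to 81.5 and 90.5 CPM (log2 fold change -0.68). In both genes replicate 1 was the lower of the siUSP15 libraries. CYP51A1 (-0.77), MSMO1 (-0.64), MVD (-0.59), FDFT1 (-0.56), HMGCS1 (-0.53) and SREBF2 itself (-0.39) fell, and the ubiquitin ligase gene MYLIP fell by 0.75 on the log2 scale. The genes not called included SCAP (-0.12), NPC1 (-0.12) and ABCA1 (-0.01). Leaving out any 1 library gave 22 to 28 genes lower.

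Genes of fatty acid synthesis, which SREBP factors also control, fell too. Of 47 genes of fatty acid and lipid droplet metabolism 18 fell and 7 rose. SCD, the stearoyl-CoA desaturase, fell from 1130 and 1147 CPM to 667.3 and 743.8 CPM (log2 fold change -0.69), and FASN, the fatty acid synthase, from 667.8 and 677.5 CPM to 463.0 and 452.2 CPM (log2 fold change -0.56). FADS2 (-0.49), ELOVL6 (-0.43), FADS1 (-0.34), ACLY (-0.25) and ACACA (-0.19) fell too, as did the scavenger receptor CD36 (-1.64), LPIN2 (-1.26) and the lipase MGLL (-1.13). The increases were small and included the acyl-CoA ligase ACSL5 (0.42) and CPT2, which takes part in the import of fatty acids into mitochondria (0.31). When siCtrl replicate 1 was left out, 10 genes fell and 4 rose, and without siCtrl replicate 2, 15 fell and 3 rose.

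Genes of the integrated stress response rose more often than they fell. In this response, phosphorylation of eIF2-alpha favours translation of ATF4, which then induces genes for amino acid synthesis, transport and tRNA charging. Of 46 listed genes, 24 were higher and 4 lower, with a median log2 fold change of 0.20. PSAT1, of serine synthesis, rose from 111.3 and 106.8 CPM to 243.4 and 203.6 CPM (log2 fold change 1.04, standard error 0.071, adjusted p = 1.46e-06 from edgeR), and ASNS, the asparagine synthetase, from 44.6 and 41.0 CPM to 79.1 and 67.9 CPM (log2 fold change 0.78). CHAC1, a glutathione-degrading enzyme, rose from 3.79 and 3.81 CPM to 12.3 and 8.70 CPM (log2 fold change 1.48). The cystine carrier SLC7A11 (0.68), CTH (0.74), DDIT4 (0.68), SESN2 (0.49), TRIB3 (0.44) and DDIT3, which encodes CHOP (0.42), rose as well. ATF4 RNA itself was not called (-0.01). Against the direction of the list, GDF15 fell from 6.93 and 7.03 CPM to 1.47 and 1.14 CPM (log2 fold change -2.40), the glutamine carrier SLC38A2 from 804.3 and 870.9 CPM to 422.2 and 482.4 CPM (log2 fold change -0.89), and PPP1R15A by 0.33. Leaving out any 1 library gave 19 to 29 genes higher.

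The CHAC1 promoter is shown because the letters TTGCATCA, a form of the site that ATF4 binds together with C/EBP factors, occur in it. The 250 bases before the start (GRCh38.p14 chr15:40953221-40953470, plus strand, RefSeq) are given 5′ to 3′ with TTGCATCA and CCAAT in capitals on either strand (ATTGG is CCAAT read on the other strand).
CHAC1: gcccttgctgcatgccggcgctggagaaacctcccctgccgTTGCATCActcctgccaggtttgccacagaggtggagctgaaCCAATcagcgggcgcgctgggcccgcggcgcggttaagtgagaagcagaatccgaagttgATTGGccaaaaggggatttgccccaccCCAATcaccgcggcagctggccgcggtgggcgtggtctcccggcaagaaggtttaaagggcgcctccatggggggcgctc
TTGCATCA begins at -209, CCAAT at -167 and -80, and ATTGG at -107. TTGCATCA is held by 0.866% of all RefSeq promoters. Of the 53 tested protein-coding genes whose promoter held it on either strand, 14 were higher (26.4%) and 3 lower (5.66%), against 13.9% and 17.8% of the 10427 genes with a promoter.

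Genes for the charging of tRNAs rose as well. Among 40 aminoacyl-tRNA synthetase genes 19 were higher and 0 lower (0 lower also at an unadjusted p under 0.05 from edgeR, and 0 by DESeq2 or limma-voom), with a median log2 fold change of 0.13. WARS, for tryptophan, which is also induced by interferon-gamma, rose from 168.6 and 151.0 CPM to 313.2 and 277.8 CPM (log2 fold change 0.89). The others rose little, such as TARS2 (0.48), AARS (0.37), CARS (0.29) and MARS (0.28). Without siCtrl replicate 2, 10 genes were called, and without siUSP15 replicate 2, 20 higher and 1 lower. Amino acid carriers were divided, with 8 higher and 9 lower of 26: SLC43A2 (0.96), SLC7A11, SLC7A7 (0.58) and SLC1A4 (0.56) rose, and SLC7A8 (-2.87), the taurine carrier SLC6A6 (-0.91), SLC38A2 and SLC7A6 (-0.43) fell. Either siCtrl library left out gave 5 increases and 5 decreases. Of 48 chaperones and unfolded protein response genes of the endoplasmic reticulum, 5 rose and 4 fell, and HSPA5, the main chaperone BiP, was not called (-0.04). These ER counts were 2 and 0 without siCtrl replicate 1, and 3 and 0 when siCtrl replicate 2 was left out.

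**Figure D3:**
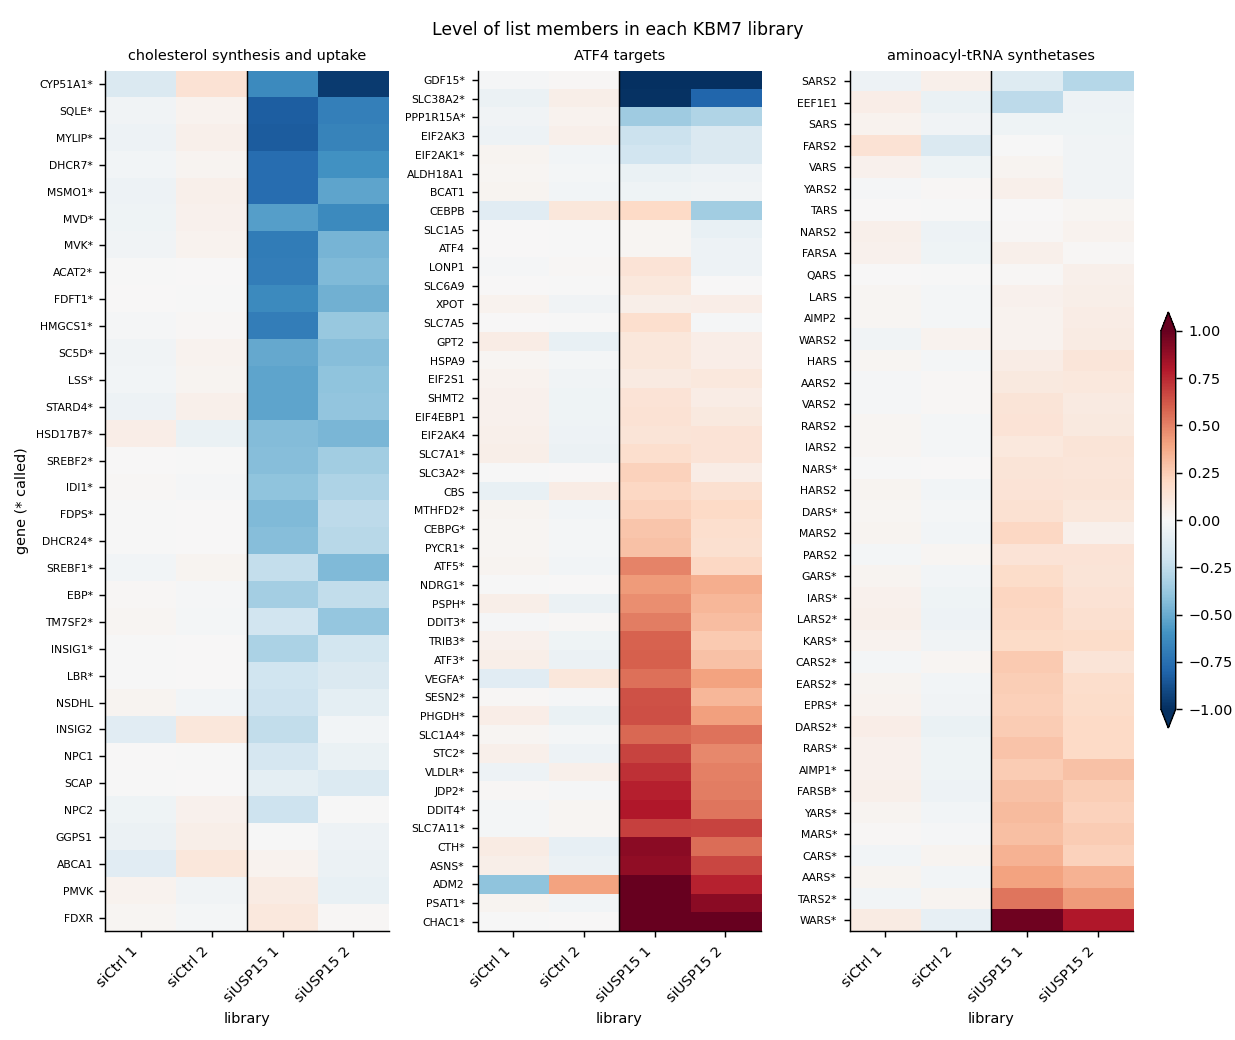
Level of tested members of the lists for cholesterol synthesis and uptake, ATF4 targets and aminoacyl-tRNA synthetases in each library, as log2 CPM minus the mean of the siCtrl libraries, ordered by log2 fold change, with colors saturated at -1 and 1 and called genes marked by an asterisk. Not all cholesterol genes are drawn. Both siUSP15 libraries are below the controls in most cholesterol genes (25 of 34 called lower) and above them in most ATF4 targets (24 of 46 called higher), with replicate 1 usually farther from the controls.

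Genes of energy metabolism were divided. Of 29 glycolysis genes 10 fell and 2 rose. PKM, the pyruvate kinase, fell from 3399 and 3415 CPM to 2339 and 2647 CPM (log2 fold change -0.45), HK1, the first hexokinase, by 0.67 on the log2 scale and the glucose carrier SLC2A3 by 0.47, while GAPDH (0.07) and LDHA (-0.05) were not called. PDK1 (0.47) and PFKL (0.29) rose. After removal of siCtrl replicate 1, 5 decreases were called. Hypoxia-inducible genes were mixed, 9 lower and 5 higher of 29, with EGLN3 (-2.03) and EPAS1 (-0.80) among the lower ones and VEGFA (0.48) and PDK1 among the higher ones. Without siCtrl replicate 1 the counts were 4 and 3. Among 40 antioxidant genes 12 fell and 7 rose: AKR1C1 (-2.26), ABCC2 (-1.10), the malic enzyme ME1 (-0.57) and GCLM (-0.36) fell, and catalase, CAT (0.86), and NQO1 (0.75) rose. When siCtrl replicate 1 was left out, 7 fell and 6 rose. The 13 proteins encoded by the mitochondrial genome were not called in either direction (0 also at an unadjusted p under 0.05 from edgeR and by DESeq2 or limma-voom), and their replicates differed more than the groups, since replicate 2 minus replicate 1 had a median of 0.36 with siCtrl and of -0.26 with siUSP15. Without the filter on low counts edgeR called 1 of them higher and 4 lower, and when a single library was left out, up to 5 were called.

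Genes of phosphoinositide 3-kinase signaling fell more often than they rose. This pathway relays growth factor and BCR-ABL1 signals to AKT and mTOR. Of 41 tested genes 17 were lower and 2 higher. The adaptor GAB1 fell from 66.9 and 75.3 CPM to 25.1 and 29.5 CPM (log2 fold change -1.38, adjusted p = 5.36e-07 from edgeR). The catalytic subunits PIK3CB (-0.68), PIK3CG (-0.56), PIK3CA (-0.48) and PIK3CD (-0.22) all fell. The regulatory subunits went apart, PIK3R3 (-0.54) and PIK3R5 (-0.27) down and PIK3R1 (0.28) up. IRS1, an insulin receptor substrate, rose from a low level (0.45 and 0.21 CPM to 1.23 and 0.80 CPM, log2 fold change 1.58). When siCtrl replicate 1 was omitted, 9 genes were lower and 2 higher.

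In the JAK/STAT list, 15 of 38 genes fell and 6 rose. The lower ones included feedback inhibitors and targets of STAT5, which BCR-ABL1 activates: SOCS3 (-1.40), the kinase PIM2 (-0.82), SOCS5 (-0.65), the cytokine OSM (-0.53) and SOCS1 (-0.38). STAT6 (0.39) and STAT4 (0.27) rose, and JAK2 (-0.03), STAT3 and STAT5A (-0.01) were not called. After removal of siCtrl replicate 1, 7 fell and 3 rose, and without siCtrl replicate 2, 8 fell and 1 rose. In the MAPK immediate early and feedback list 12 of 43 fell and 9 rose. The early factor EGR1 (-0.88), IER3 (-1.24), the phosphatase DUSP4 (-0.70) and SPRY4 (-0.58) fell, while the nuclear receptors NR4A1 (0.57), NR4A2 (0.78) and NR4A3 (1.19), EGR2 (0.85) and KLF4 (1.04) rose. With siCtrl replicate 1 set aside, 4 increases were called.

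Of 39 NF-kB genes 15 rose and 5 fell. BIRC3, an inhibitor of apoptosis (1.10), the chemokines CCL3 (1.01), CCL4 (0.96) and CCL5 (0.58), the cytokine IL32 (0.89) and the feedback deubiquitinase TNFAIP3, or A20 (0.63), rose, and NFKBIZ (-0.59) and IER3 fell. The NF-kB subunits RELA (0.03) and NFKB1 (-0.10) were not called, and RELB (0.42) was higher. Without siCtrl replicate 1, 10 rose and 3 fell. FOXO factors and targets were divided, with 7 higher and 11 lower of 29. ARRDC3, CAT and the redox protein TXNIP (0.63) rose, and FOXO1 (-0.54), PINK1 (-0.62) and CCNG2 (-0.54) fell.

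USP15 is known for its part in TGF-beta signaling, and of 42 genes of this pathway and its targets 14 were lower and 6 higher. Among receptors, AMHR2 (-2.64), ACVR2B (-0.54), BMPR1A (-0.51), ACVR1B (-0.34) and TGFBR1 (-0.22) fell, and TGFBR2 (0.27) and ACVR2A (0.51) rose. Of the SMADs, SMAD1 (-0.26) and SMAD4 (-0.20) fell, SMAD7, the inhibitory one, rose by 0.85, and SMAD2 (0.11) and SMAD3 (0.15) were not called. The targets CDKN2B (-1.15) and ID2 (-0.65) fell, and the activin subunit genes INHBA (1.09) and INHBE (1.71) rose. When siCtrl replicate 2 was left out, 10 were lower and 4 higher. In the WNT, NOTCH and Hedgehog list 15 of 45 fell and 2 rose, with NOTCH1 (-0.48), NOTCH3 (-0.63) and their targets HES1 (-0.59), HEY1 (-0.96) and NRARP (-0.36) among the lower ones. Either siCtrl library left out gave 9 decreases and no increase.

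Direct partners of USP15 and subunits of the COP9 signalosome, with which it associates, changed little at the RNA level, 3 higher and 4 lower of 27. TRIM25 (0.42), also an interferon-stimulated gene, and COPS7A (0.45) rose, COPS6 (-0.23), REST (-0.19) and KEAP1 (-0.16) fell, and MDM2 (-0.11) and SART3 (-0.07) were not called. After removal of siCtrl replicate 1, 2 were higher and 1 lower. The call of COPS6 was lost in that setting. Of 55 genes named USP, a family that includes the targeted USP15 itself, 3 were higher and 14 lower, USP15 among the latter. USP18, which removes the ubiquitin-like ISG15, was among the higher ones (from 56.1 and 52.4 CPM to 93.1 and 89.6 CPM, log2 fold change 0.75). In the other deubiquitinase families 4 of 32 rose and 2 fell, and without siCtrl replicate 1 the counts were 2 and 0.

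DNA repair, replication and mitosis genes moved by small amounts. These are pathways that the study examined for genome stability. Of 55 genes of homologous recombination and the Fanconi anemia pathway 7 rose and 4 fell, in all cases by less than 0.5 on the log2 scale. RAD51D (0.48), RAD50 (0.26), BARD1 (0.23) and BRCA1 (0.18) rose, and the ubiquitin ligase RNF168 (-0.38), UIMC1 (-0.22), RECQL4 (-0.22) and TP53BP1 (-0.14) fell, while BRCA2 (-0.02) and ATM were not called. The call of TP53BP1 was lost in 3 of 4 cases, when either siCtrl library or siUSP15 replicate 1 was left out. The counts were 3 and 2 without siCtrl replicate 1, 2 and 1 without siCtrl replicate 2, and 12 and 7 without siUSP15 replicate 2. Among 59 replication genes 5 rose and 9 fell, with the licensing factor CDC6 (-0.30) and cyclin CCNE2 (-0.29) lower and the MCM2 to MCM7 helicase genes all without a call. These replication counts were 3 and 2 without siCtrl replicate 1, and 4 and 2 without siCtrl replicate 2. Of 66 mitosis genes 13 rose and 4 fell. NEK2 (0.29), HMMR (0.28), NDC80 (0.26) and the cyclins CCNB1 and CCNB2 (both 0.16) were among the higher ones, but without siCtrl replicate 1 there were 4 increases and no decrease, and without siCtrl replicate 2 there were 5 and 1. NEK2 lost its call in the former setting. Proliferation genes such as MKI67 (-0.07), TOP2A (0.03) and PCNA (-0.04) were not called.

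Regulators of the cell cycle and of cell death showed larger steps. Of 39 brakes and regulators of the G1 phase 13 fell and 4 rose: the inhibitor CDKN2B (-1.15), the MYC antagonists MXD4 (-0.65) and MXD1 (-0.57), SKP2 (from 145.0 and 148.0 CPM to 98.8 and 99.1 CPM, log2 fold change -0.57) and MYC (-0.23) fell, and CDKN1A (0.50), CCND2 (0.45) and RBL1 (0.41) rose. Leaving out any 1 library gave 11 to 17 of these genes lower. Among 43 genes of the BCL2 family and apoptosis 10 fell and 5 rose, the former including BIK (-0.47), BMF (-0.41) and the survival gene BCL2L1 (-0.36), the latter BIRC3, CASP4 (0.64) and PMAIP1, or NOXA (0.42). When siCtrl replicate 1 was left out, these counts were 6 and 4.

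Chromatin modifiers fell in large number but by little. Of 92 genes 45 were lower and 1 higher, with a median log2 fold change of -0.15. DOT1L, the methyltransferase of H3K79, fell from 138.9 and 153.0 CPM to 110.1 and 107.7 CPM (log2 fold change -0.42, adjusted p = 0.000128 from edgeR). EZH2, the catalytic subunit of Polycomb complex 2, fell from 125.3 and 131.5 CPM to 106.0 and 108.6 CPM (log2 fold change -0.26). The remodeler subunit PBRM1 (-0.32), the bromodomain gene BRD3 (-0.32), TET3 (-0.30) and DNMT3B (-0.28) fell as well. SIRT7 rose from 27.02 and 28.3 CPM to 32.9 and 32.3 CPM (log2 fold change 0.24). The number of decreases rested on the library set, with 12 when siCtrl replicate 1 was left out, 24 for siCtrl replicate 2, 28 for siUSP15 replicate 1 and 53 for siUSP15 replicate 2. The median level of the list was 6.61 on the log2 CPM scale, against 4.66 over all tested genes, and abundant genes as a whole held more decreases, as given above. The part of the level in this count was not tested.

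Replication-dependent histone genes, most of whose mRNAs lack poly(A) tails, were low in these libraries. Of 20 tested genes 10 were lower and 0 higher (0 higher also at an unadjusted p under 0.05 from edgeR, and 0 by DESeq2 or limma-voom), with a median log2 fold change of -0.52. The list summed to 97.3 and 99.6 CPM with siCtrl and to 66.2 and 72.4 CPM with siUSP15. HIST1H2AD (-1.05), HIST1H3G (-0.94), HIST1H2BJ (-0.81), HIST1H1C (-0.44) and HIST2H2BE (-0.41) were among the lower ones, and copies of this family are similar and may share reads. Without siCtrl replicate 1, 5 genes were called.

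Families of zinc finger genes differed in the direction of their calls. Of 438 genes named ZNF 84 were higher and 37 lower, a share of 19.2% higher, with a median log2 fold change of 0.08, while of 39 genes named ZBTB 10 were lower and 0 higher by edgeR (2 higher at an unadjusted p under 0.05, and 0 by DESeq2 or limma-voom). The solute carriers, 230 genes named SLC, had 41 higher and 60 lower members, and the ATPase and ATP synthase genes named ATP had 6 higher and 21 lower of 72. The families were formed from the gene symbols alone.

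Calls in core machineries are read against the 29.0% of all tested genes, 13.2% higher and 15.8% lower. Of 78 genes with symbols that begin with RPL 6.41% were called, and of 56 that begin with RPS 10.7%. These stems belong to proteins of the large and small ribosomal subunits. Formed from symbols of all gene types, the 2 families also take in other genes, such as pseudogenes, so the shares are not those of ribosomal proteins alone. Of 66 genes of the spliceosome and of RNA-binding proteins 5 rose and 5 fell, with none over 0.3 in size, and of 56 genes of ribosome biogenesis 8 rose and 2 fell. Heat shock proteins had 4 higher and 4 lower of 48, translation factors 7 and 5 of 50, and nucleotide and one-carbon synthesis 5 and 1 of 40. The share called was 24.0% for translation factors and 22.7% for the proteasome. The proteasome had 9 higher (20.5%) and 1 lower of 44, led by the regulators PSME2 (0.56) and PSME1 (0.48), which interferon-gamma induces. The family of 49 genes named PSM, which also holds immunoproteasome genes of the interferon list, had 14 higher (28.6%) and 1 lower. These small counts rested on the library set. When siCtrl replicate 2 was left out, 2 increases were called in the proteasome, 3 in ribosome biogenesis, 2 among translation factors and 1 in the spliceosome list, and when siUSP15 replicate 2 was left out these were 12, 15, 14 and 7.

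Calls of neighbouring genes were also described. Of 14980 tested genes, 870 were called with a size of 0.5 to 1, 402 with 1 to 2 and 82 with more. Whether runs were more frequent than these numbers alone would give was not tested. Runs of at least 4 neighbouring tested genes that were all called in 1 direction with a size over 0.5 on the log2 scale were found 11 times, 6 of them higher and 5 lower, with 46 genes in all. The beta globin cluster (chr11:5232678-5505617) fell with HBD, HBBP1, HBG2 and HBE1. In the MS4A cluster (chr11:59938455-60308972), which encodes membrane proteins of mast cells and leukocytes, OOSP1, MS4A3, MS4A2, MS4A6A and MS4A4A fell, MS4A4A from 15.4 and 14.5 CPM to 6.16 and 7.73 CPM. The tryptase cluster (chr16:1227272-1258074) and the receptors IL1R1, IL1RL1, IL18R1 and IL18RAP (chr2:102064544-102452565) were lower as well. IL1RL1, the receptor of interleukin-33 on mast cells, fell from 83.6 and 90.1 CPM to 34.9 and 47.1 CPM (log2 fold change -1.09). On chromosome 5 (chr5:36035017-36302114), UGT3A2, LMBRD2, SKP2, NADK2 and RANBP3L fell, RANBP3L from 3.51 and 5.97 CPM to 1.01 and 0.93 CPM.

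The runs of higher genes held EPX, MKS1, MPO and BZRAP1 (chr17:58192737-58328760) and SCN4B, AMICA1, MPZL3 and MPZL2 (chr11:118133377-118264536), of which MPZL2, an adhesion gene, rose from 42.3 and 37.9 CPM to 91.7 and 86.2 CPM. PDGFD, CASP4, CASP1 and CARD16 (chr11:103907186-105101431) formed another run, with 1 interferon-list gene in it, and CARD16 overlaps CASP1 in sequence. Runs with interferon-list genes also lay around SP110 and SP100 (chr2:230034974-230544090) and at PSMB8, PSMB9 and TAP1 (chr6:32840717-32853978). In the class II region of the major histocompatibility complex (chr6:32552990-32817048) HLA-DRB1 rose from 31.6 and 29.3 CPM to 51.2 and 50.3 CPM (log2 fold change 0.74), HLA-DQB1 by 0.52 and HLA-DOB by 0.89. HLA-DQA1 had 2 and 2 counts with siCtrl and 14 and 10 with siUSP15. Their activator CIITA rose from 92.2 and 90.2 CPM to 122.7 and 122.0 CPM (log2 fold change 0.42). The calls of OOSP1, IL1R1, MS4A6A, UGT3A2, PDGFD, HLA-DQA1 and RP11-616M22.5 of the tryptase run were each lost when at least 1 of the 4 libraries was left out. Neighbours can overlap and share reads, since no source says that the counting used the strand.

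Antisense genes were compared with the coding genes they overlap. Of 565 pairs of an antisense gene and an overlapping tested coding gene, the antisense gene was called in 52, and in 30 of these both had the same sign. The share of equal signs over all pairs is not given here, so no excess can be read from this count. Both partners were called in 21 pairs, 13 in the same and 8 in opposite directions. GATA2-AS1 fell with GATA2, from 16.4 and 14.6 CPM to 9.03 and 8.53 CPM (log2 fold change -0.82), HOXA10-AS (-0.58) fell with HOXA9 (-0.29), and RP11-660L16.2 (-0.84) fell with the cholesterol gene DHCR7. HOXA10-AS also overlaps HOXA10, which had the opposite sign and was not called (0.16). THAP9-AS1 (0.52) rose with THAP9 (0.35). In contrast, RP11-284F21.10 rose (1.21) where BCAN fell (-1.43), and the TRAF3IP2-AS1 gene with the identifier ENSG00000255389 fell (-0.69) where TRAF3IP2 rose (0.56). Without strand-specific counts, reads of the partners cannot be told apart.

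The shares of calls were also described by letters found in the promoters. RefSeq promoters of 300 bases, 250 before and 50 from the start on, were matched to 10427 of 12686 tested protein-coding genes, and 31.6% of these genes were called. Genes with the letters TATAAA, known as the box that TBP binds, on either strand (595 tested genes) were called in 37.5% of cases, and 9.08% were called with a log2 fold change over 1 in size, against 2.83% of all genes with a promoter. These letters are held by 11.5% of all promoters in the RefSeq table, tested genes or not. Genes with the ETS-like letters CTTCCGG (2008 genes) were called in 25.5% of cases, those with GCGCATGC, which NRF1 binds (577 genes), in 24.3%, and those with AAGATGGC, which YY1 binds (560 genes), in 25.4%, with under 1% over 1 in size in each. The E-box CACGTG (1064 genes) went with 12.4% higher and 20.7% lower genes. Of the 315 genes with letters like the interferon-stimulated response element, 47.0% were called, 31.7% higher and 15.2% lower, and after removal of the interferon list 21.5% of the remaining 270 genes were higher and 17.0% lower. Of the 167 genes with letters like an NF-kB site 41.9% were called, 22.8% higher and 19.2% lower. After removal of the interferon list, 19.5% of the remaining 159 genes were higher and 19.5% lower. In all, 16 motifs were searched. The median level of the genes with TATAAA was 4.73 on the log2 CPM scale, against 5.19 over all genes with a promoter, and the part of this difference was not tested.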

How the data were processed

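RNA of 2 siCtrl and 2 siUSP15 libraries of KBM7 was analysed. The values are the raw counts per gene in the authors' deposited table, which also gives Ensembl 77 annotation. The processing notes of the submitters list TopHat2 2.1.0, HTSeq, edgeR and limma and the build hg38, while the study's software list has Itreecount and DEGseq, so the tool behind the counts and its strand setting are not settled. The table also holds log2 values and the authors' own fold changes and p-values, which were not used.

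After filterByExpr and TMM scaling, siUSP15 was compared with siCtrl by edgeR 4.0.16 (R 4.3.3, glmQLFTest, 2-sided), with Benjamini-Hochberg adjustment over 14980 genes and a threshold of 0.05. The standard error is the log2 fold change divided by the square root of F. Alternatives were RLE size factors, no filter, each library left out, the replicate number as a block, DESeq2 1.42.0, limma-voom (limma 3.58.1), a threshold of 0.01 and glmTreat against a fold of 1.2. The code was tested on simulated counts. Library totals of 23450607 to 29441118 counts limit precision mainly for genes near 1 CPM, and counting intervals cover counting error only. GENCODE 44 gave strand, exonic length and GC content for 98.4% of the genes, and RefSeq (GRCh38.p14) the promoters, the first listed start of each gene, matched by symbol.

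The members, gene lists and the rule for named genes were chosen with earlier results of these data known. The rule names USP15, the 10 largest protein-coding changes each way outside the interferon list with a mean log2 CPM of at least 1, the 5 largest each way for long non-coding RNAs (of which 1 is not named) and 3 for pseudogenes with a mean log2 CPM of at least 0, the 5 most abundant called genes each way, the 4 lowest p in each list, and genes in runs. Other genes named as list members, the promoters shown and the symbol families were chosen after their values had been seen. Some genes and lists are not reported here.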

Additional observations from a re-analysis of the deposited data

How the results depend on the processing

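RLE size factors, testing all genes without a filter, the replicate block and limma-voom kept the counts of called genes within 1.5 times of those reported. DESeq2 gave 2552 calls, 1073 higher and 1479 lower, with 291 over 1 in size, 2453 outside the interferon list, 2446 protein-coding, 76 long non-coding and 25 pseudogenes. At an adjusted p under 0.01 edgeR gave 2481, 1061 higher and 1420 lower, with 2381 outside the interferon list, 2358 protein-coding, 91 long non-coding and 28 pseudogenes. glmTreat against a fold of 1.2 gave 1186, 546 higher and 640 lower, with 1100 outside the interferon list, 1089 protein-coding, 70 long non-coding and 23 pseudogenes. Leaving out 1 library gave 2214 (without siCtrl replicate 1) to 5129 calls (without siUSP15 replicate 2), 990 to 2440 higher and 1224 to 2689 lower, 2115 to 5026 outside the interferon list, 2102 to 4750 protein-coding, 75 to 278 long non-coding and 33 to 83 pseudogenes. Among the genes picked by the naming rule, no called gene changed direction in any setting. The counts of calls have no direction to change, but the balance within a list could turn, as for the replication genes described above. Of 255 named genes that were called, 216 were called whichever library was left out and 39 lost the call at least 1 time. This tally covers the genes picked by the naming rule, and other genes named as list members did not enter it. A group reduced to 1 library is assumed to vary like the other group. The stricter threshold and the required fold call fewer genes by construction, and the cause of the other differences was not tested. Same-numbered libraries did not deviate together (correlation 0.000978 over 2 pairs), and with the replicate number as a block 4330 genes were called. Strand, separate cultures and the specificity of the siRNA pool, for which 1 pool was used, cannot be judged from these counts.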

Other observations

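Further lists are given by their counts. Of 45 genes of integrins, adhesion and the cell surface 13 rose and 13 fell, and without siCtrl replicate 1 these counts were 6 and 7. Of 59 lysosome and autophagy genes 9 rose and 13 fell, or 4 and 8 without siCtrl replicate 1. In the tricarboxylic acid cycle 4 of 32 rose and 4 fell, or 1 and 3 without siCtrl replicate 2. Of 20 circadian clock genes 1 rose and 5 fell, or 1 and 2 without siCtrl replicate 1. Of 19 imprinted genes 4 rose, H19 among them, and 3 fell, or 2 and 1 without siCtrl replicate 1. Markers of other cell types were few: 1 of 6 T and NK cell markers rose and 2 fell, 1 of 4 B cell markers rose, and 1 of 5 epithelial markers rose and 1 fell.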
